A study of Mus musculus with 4 samples.

Results

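The BCL2 family of survival and death genes was examined in AML12, an immortalised line of mouse hepatocytes that is the only cell model used here. The 10 genes were taken by symbol from a table of 31828 genes, namely Bcl2, Bcl2l1, Mcl1, Bcl2l2, Bcl2l11, Bid, Bad, Bak1, Bik and Bmf. RNA was sequenced from cells grown as a layer in a dish (2D, 2 libraries) or inside a gel of basement membrane extract, Matrigel (3D, 2 libraries). Both cultures carried hydroxyurea, an inhibitor of DNA replication used to hold cells at the G1/S boundary, at 1 mM, for 24 h in 2D and 36 h in 3D. The drug went on to 2D dishes at 50% confluence and on to 3D cultures after 24 h of growth, so that culture form, time in culture and time under the drug cannot be told apart. All 4 libraries also shared a medium with serum, insulin, transferrin, selenium and dexamethasone at 40 ng/mL.

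Proteins of the BCL2 family decide whether the outer membrane of mitochondria is opened, the step that releases cytochrome c and starts the caspases. Pro-survival members such as BCL2, BCL-XL (from Bcl2l1), MCL1 and BCL-W (from Bcl2l2) hold the effectors BAK and BAX in check, and the BH3-only members BIM (from Bcl2l11), BID, BAD, BIK and BMF relieve that hold by placing their BH3 helix in a groove of the pro-survival proteins. Hepatocytes are known to depend on BCL-XL and MCL1, and in these cells death receptors act through cleavage of BID. Many of these proteins are also controlled by cleavage, phosphorylation or rapid turnover, which mRNA levels do not show.

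The BH3 core is a sequence feature of this family. Its coding sequence is shown for the members that differed between the cultures, beside Bcl2l11 and Bak1, which did not pass the test. A pattern of leucine, any 3 residues, then glycine, alanine or serine, then aspartate was searched in the longest complete GENCODE M21 coding transcript of each gene (GRCm38). It occurred once in 9 of the 10 members, in Bcl2l2 not at all, and in 33.8% of all protein-coding genes. The pattern demands leucine at its first place, so a miss does not show that Bcl2l2 lacks a BH3 region. In Bmf it lies at residues 224 to 229 of 271, in exon 4 of 5 (chr2:118545109-118545126, minus strand). In Bid it lies at residues 90 to 95 of 195, in exon 4 of 6 (chr6:120897298-120897315, minus strand), and in Bad at residues 151 to 156 of 204, in exon 3 of 4 (chr19:6950792-6950809, plus strand). In Bcl2l1 it lies at residues 90 to 95 of 233, in exon 2 of 3 (chr2:152829706-152829723, minus strand). In Bcl2l11 it lies in exon 3 of 4 (chr2:128147150-128147167, plus strand) and in Bak1 in exon 4 of 6 (chr17:27022540-27022557, minus strand). Each line gives 45 coding bases, 5′ to 3′, with the 6 codons of the core in capitals.
Bmf: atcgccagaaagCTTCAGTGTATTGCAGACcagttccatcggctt
Bid: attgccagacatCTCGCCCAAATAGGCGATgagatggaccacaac
Bad: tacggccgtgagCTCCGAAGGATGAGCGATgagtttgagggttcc
Bcl2l11: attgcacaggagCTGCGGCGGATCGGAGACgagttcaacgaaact
Bcl2l1: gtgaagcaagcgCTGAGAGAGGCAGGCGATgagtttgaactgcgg
Bak1: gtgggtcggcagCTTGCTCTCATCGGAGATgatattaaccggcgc
Over the whole stretch, core included, the closest pair among the 9 was Bik and Bak1 with 28 of 45 bases alike, and the farthest were Bmf with Bcl2l1, Bmf with Mcl1 and Bcl2 with Bid, each with 16.

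Levels are given in TPM, transcripts counted relative to a fixed total, which corrects for transcript length and for library size but keeps no record of sequencing depth. RNA came from bulk cultures, in which fewer cells of a type and less RNA per cell cannot be told apart. The libraries held 13891 to 14256 genes at 1 TPM or more, and mitochondrial genes took 5.37% to 5.44% of TPM in 2D and 6.51% to 6.78% in 3D. The hepatocyte identity of the cells was partial. Of 8 hepatocyte markers 6 reached 1 TPM in both 2D libraries and 7 in both 3D libraries, and their sum was 9412 to 9614 TPM in 2D and 5574 to 5655 TPM in 3D. Most of it was the keratin genes Krt8, at 3242 and 3199 TPM in 2D and at 1795 and 1847 TPM in 3D, and Krt18, at 6286 and 6128 TPM in 2D and at 3275 and 3320 TPM in 3D. The lower sum in 3D came from Krt8 and Krt18. Each other hepatocyte marker was higher in both 3D libraries than in either 2D library. Alb, the serum albumin gene, stood at 0.819 and 1.20 TPM in 2D and at 12.7 and 10.0 TPM in 3D. Ttr stood at 3.98 and 3.11 TPM in 2D and at 88.1 and 80.9 TPM in 3D. Trf stood at 19.3 and 18.4 against 227.1 and 231.5 TPM, and Hnf4a at 56.7 and 57.6 against 163.8 and 155.6 TPM. Apoa1 was also higher in 3D. Serpina1a was listed at 0 in both 2D libraries and under 0.1 TPM in 3D. The biliary keratins Krt7 and Krt19 were abundant, and 4 biliary markers summed to 2156 to 2235 TPM in 2D and 1505 to 1571 TPM in 3D, with Epcam at or near 0. Summed endothelial markers lay between 0.555 and 1.19 TPM. Leukocyte markers summed to 18.4 to 19.2 TPM in 2D and 21.8 to 25.8 TPM in 3D, nearly all of it Cd68, with Ptprc under 0.3 TPM, and stellate or fibroblast markers to 34.9 to 37.4 and 18.6 to 19.8 TPM, nearly all of it Des. Their part in the results that follow was not tested.

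The study asked whether gene expression differs between the 2 forms of culture. Among the members, 3 were higher in the 3D-cultured cells (Bmf, Bid and Bcl2l1) and 1 was lower (Bad). Genes with a mean of at least 1 TPM were tested with limma on log2(TPM + 1), and a gene was called at an adjusted p-value under 0.05. Of the 9 members tested, 4 were called, while 50.5% of all 14116 genes tested were called, 23.4% as higher and 27.1% as lower. The share of members called was therefore near the background. The median log2 fold change was 0.07 over the members tested and -0.04 over all genes tested. The libraries of the cultures did not overlap for 8 of the 10 members, among them Bik, which was too low to be tested. They did not overlap for 77.5% of all genes tested. Changes were mostly small, and 8 of the 9 tested members lay between the 5th percentile of all genes tested, a log2 fold change of -0.92, and the 95th, 0.96.

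**Figure D1:**
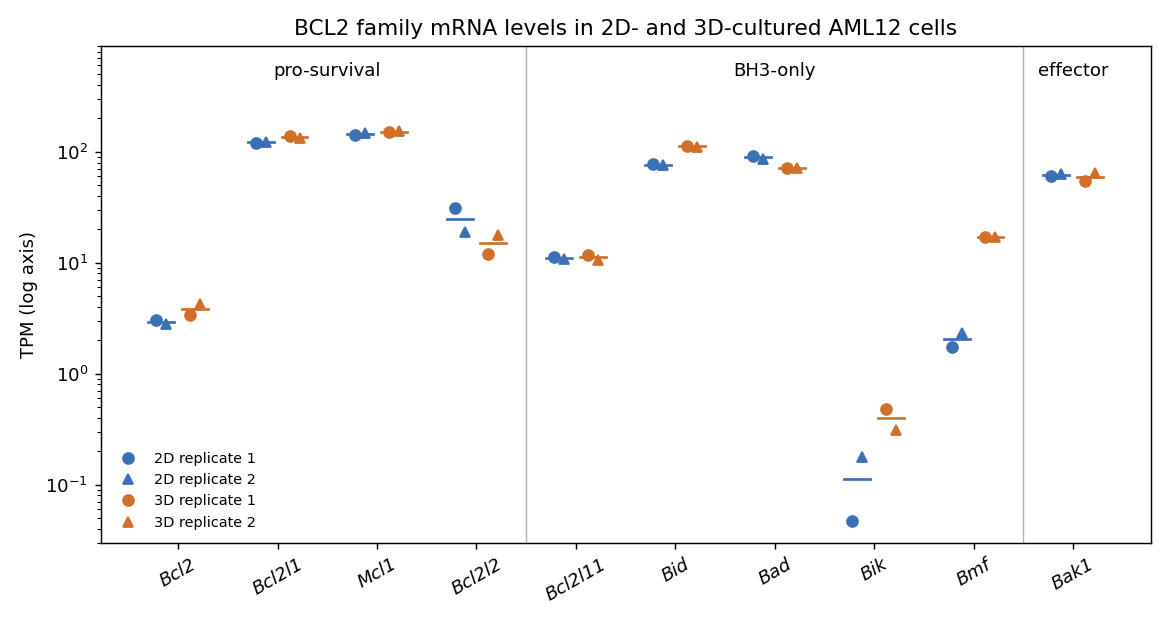
TPM of the 10 BCL2 family members on a log axis, with circles for replicate 1, triangles for replicate 2 and lines at the means of the 2 libraries of 2D (blue) and 3D (orange). Levels spanned from under 0.5 TPM for Bik to over 140 TPM for Mcl1, and Bmf is the member whose cultures stand farthest apart among those over 1 TPM.

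Bmf showed the largest change of the tested members. BMF is a BH3-only protein known to be held at the cytoskeleton through dynein light chain and to take part in death of cells that lose their attachment. Its gene (ENSMUSG00000040093, chromosome 2, 118528757 to 118549687, minus strand, GRCm38) stood at 1.75 and 2.33 TPM in 2D and at 17.0 and 17.2 TPM in 3D. The 3D libraries were nearly equal and both lay far above the 2D libraries. The means were 2.04 ± 0.408 and 17.1 ± 0.107 TPM (SD, n = 2 each), and their ratio was 8.40. On the log2(TPM + 1) scale, which understates changes of low genes, the fold change was 2.58 (SE 0.12, 95% confidence interval 2.26 to 2.91, adjusted p 0.000424 by limma). This was rank 48 of the 14116 genes tested in order from the highest fold change. With a pseudocount of 5 in place of 1 the fold change was 1.65, and with 0.1 it was 3.02. In 2D Bmf was ninth in order of level among the members, and in 3D it was sixth, where its libraries overlapped those of Bcl2l2.

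RefSeq (GRCm38.p6) gives 3 start sites for Bmf, and the table does not separate them. The start at 118544587 lies beyond the BH3 core (118545109 to 118545126) on the minus strand, so RNA begun there would not hold the core. How much of the change of Bmf was in RNA that codes for the core cannot be told from gene levels. The start nearest to the end of the Ensembl gene is at 118549686, and that end is at 118549687. The 250 bases before this RefSeq start (chr2:118549687-118549936, minus strand, printed 5′ to 3′) are shown because no other member changed as much. The letters CAGCTG, an E-box, are in capitals and begin 70 bases before the start.
Bmf: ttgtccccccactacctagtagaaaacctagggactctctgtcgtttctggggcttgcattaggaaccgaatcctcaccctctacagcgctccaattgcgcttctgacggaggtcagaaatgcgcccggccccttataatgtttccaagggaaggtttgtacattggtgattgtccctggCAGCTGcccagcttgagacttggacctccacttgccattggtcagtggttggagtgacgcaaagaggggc
This motif, which is its own reverse complement, was picked after these sequences were seen. It occurred in each of the 3 Bmf windows, in none of the 12 windows of the other members that RefSeq gave (15 windows for 9 members, none for Bik), and in 13.0% of 32851 windows of all genes. On both strands the FOXO core GTAAACA occurred in 1 of the 15 windows, for Bcl2l11, against 3.17% of all windows. The GC box GGGCGG occurred in 7 of the 15 windows against 32.7%, and TGANTCA, the AP-1 site, in 0 of the 15 against 6.75%.

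Bid rose moderately. BID is cleaved by caspase 8 and so links death receptors to mitochondria. The gene (ENSMUSG00000004446, chromosome 6, 120891930 to 120916853) stood at 77.0 and 76.1 TPM in 2D and at 112.9 and 111.1 TPM in 3D, with replicates close together and the cultures well apart. The ratio of the means was 1.46 and the log2 fold change 0.54 (SE 0.04, adjusted p 0.00102 by limma). Bid overlaps Bcl2l13 on the opposite strand over 913 bases, and the libraries were stranded. Gm44260, which lies within Bid on the same strand, stayed under 1.7 TPM in each library.

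Bad moved the other way. BAD binds BCL-XL and BCL2 and is kept inactive by phosphorylation and 14-3-3 proteins. The gene (ENSMUSG00000024959, chromosome 19, 6941861 to 6951898) stood at 92.2 and 86.8 TPM in 2D and at 70.9 and 71.2 TPM in 3D. It fell by 0.33 on the log2 scale (SE 0.05, adjusted p 0.00667 by limma), with a ratio of the means of 0.794. As a result the order of the most abundant BH3-only members differed. Bad was above Bid in both 2D libraries, and Bid was above Bad in both 3D libraries. Gpr137 overlaps Bad on the opposite strand over 590 bases and stood at 71.7 to 78.9 TPM, and the libraries were stranded.

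The other BH3-only members were not called. Bcl2l11, which encodes BIM, a strong binder of all pro-survival proteins, stood at 11.3 and 10.9 TPM in 2D and at 11.7 and 10.6 TPM in 3D (ENSMUSG00000027381, chromosome 2, 128126038 to 128162547). The cultures overlapped, and the 95% confidence interval of its log2 fold change was -0.22 to 0.23 (adjusted p 0.953 by limma). Bik, whose protein sits at the endoplasmic reticulum, was near 0, at 0.0472 and 0.178 TPM in 2D and at 0.482 and 0.312 TPM in 3D (ENSMUSG00000016758, chromosome 15, 83526862 to 83544634). It was the member too low for the test. In a fit with no filter its log2 fold change was 0.33 (adjusted p 0.152 by limma).

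Among the pro-survival members, Mcl1 and Bcl2l1 made up most of the mRNA. Mcl1, which encodes a short-lived protein, stood at 142.7 and 146.2 TPM in 2D and at 150.2 and 152.8 TPM in 3D (ENSMUSG00000038612, chromosome 3, 95658788 to 95663176). Both 3D values lay above both 2D values, but the log2 fold change of 0.07 did not pass the test (95% confidence interval -0.04 to 0.17, adjusted p 0.213 by limma). Bcl2l1 stood at 120.9 and 121.7 TPM in 2D and at 139.7 and 134.5 TPM in 3D (ENSMUSG00000007659, chromosome 2, 152780668 to 152831728). Its log2 fold change of 0.18 (SE 0.04, adjusted p 0.0249 by limma) passed the test. That call was lost when any library was left out, with adjusted p-values of 0.0579 to 0.145 in those 4 fits and log2 fold changes of 0.15 to 0.20. It was also lost with no filter on low values (adjusted p 0.0601), with a constant variance prior (0.0701) and with the replicate block (0.0636). The long and short forms made from Bcl2l1 and from Mcl1, which act in opposite ways, are not separated in a table of genes.

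Bcl2 was low, at 3.02 and 2.78 TPM in 2D and at 3.40 and 4.24 TPM in 3D (ENSMUSG00000057329, chromosome 1, 106538178 to 106714274). Its log2 fold change of 0.30 (95% confidence interval -0.05 to 0.65, adjusted p 0.122 by limma) was not called, although the libraries did not overlap. It was 0.43 without 3D replicate 1 and 0.17 without 3D replicate 2. Bcl2l2 varied most between replicates among the tested members, at 31.1 and 18.8 TPM in 2D and at 12.1 and 17.9 TPM in 3D (ENSMUSG00000089682, chromosome 14, 54883377 to 54888234). The lower 2D library and the higher 3D library were close together, and the log2 fold change was -0.68 (SE 0.29, adjusted p 0.115 by limma). It was -0.34 without 2D replicate 1, -1.03 without 2D replicate 2, -0.42 without 3D replicate 1 and -0.95 without 3D replicate 2, and was called in none of these 4 fits. Bcl2l2 shares 4794 bases with Gm20521, a protein-coding gene on the same strand that extends beyond it, so that the assignment of reads between them is uncertain. Gm20521 was listed at 1.38 to 2.37 TPM, and the 2 genes summed had a log2 fold change of -0.63 (adjusted p 0.131 by limma).

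Bak1, the effector among the members, did not pass the test. BAK resides on mitochondria and, like BAX, forms the pore. The gene (ENSMUSG00000057789, chromosome 17, 27019810 to 27029009) stood at 60.2 and 62.6 TPM in 2D and at 54.7 and 64.8 TPM in 3D, so that the 2D values lay between the 3D values. The log2 fold change was -0.04 (95% confidence interval -0.29 to 0.20, adjusted p 0.720 by limma), and 0.08 without 3D replicate 1. Ggnbp1 runs across all of Bak1 on the opposite strand, at 5.96 to 6.72 TPM in 2D and 15.3 to 16.8 TPM in 3D.

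**Figure D2:**
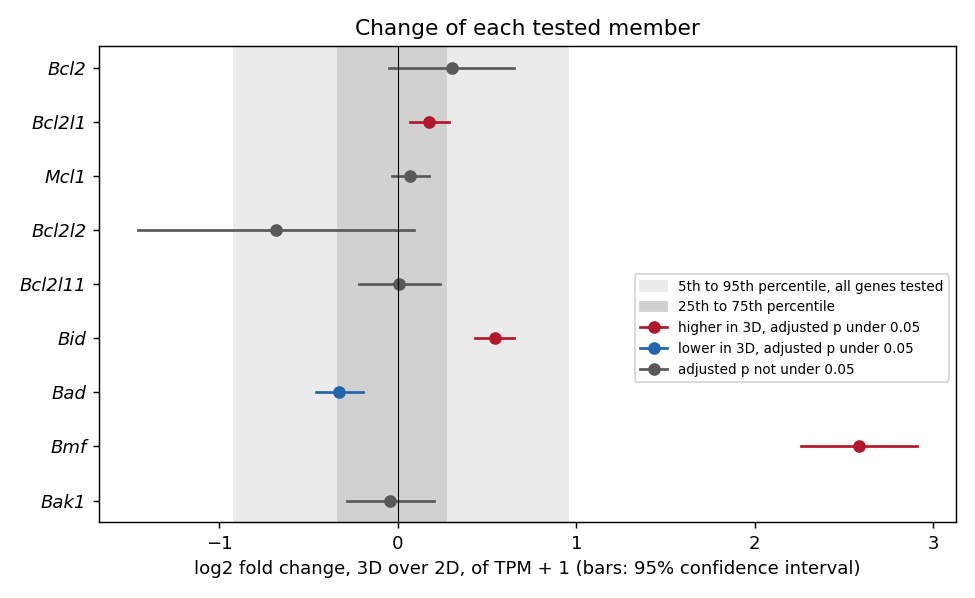
Log2 fold change of 3D over 2D on the TPM + 1 scale for the 9 tested members, with points for the limma estimate and bars for the 95% confidence interval. Grey bands hold the 5th to 95th and the 25th to 75th percentile of the 14116 genes tested, and Bmf at 2.58 lies to the right of both.

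Sums by role describe how the members add up, with no test. The 4 pro-survival members summed to 297.8 and 289.5 TPM in 2D and to 305.4 and 309.4 TPM in 3D. Mcl1 and Bcl2l1 together made 88.5% to 92.5% of that sum in 2D and 92.9% to 94.9% in 3D, and Bcl2 between 0.960% and 1.37%. The 5 BH3-only members summed to 182.3 and 176.3 TPM in 2D and to 213.0 and 210.4 TPM in 3D. The sum of the BH3-only members thus differed more between the cultures than the pro-survival sum. Within it, Bmf made 0.960% and 1.32% in 2D and 8.001% and 8.17% in 3D, Bid 42.2% and 43.2% against 53.0% and 52.8%, and Bad 50.6% and 49.2% against 33.3% and 33.8%. The ratio of the pro-survival sum to the BH3-only sum, which does not depend on how a library is scaled, was 1.63 and 1.64 in 2D and 1.43 and 1.47 in 3D. Bbc3 and Pmaip1, which encode the BH3-only proteins PUMA and NOXA, were then added to the BH3-only sum. That sum was 1391 and 1357 TPM in 2D and 1347 and 1364 TPM in 3D, so that the cultures overlapped. The ratio was then 0.214 and 0.213 in 2D and 0.227 in both 3D libraries. The order of the cultures in this ratio thus turned round with which genes were counted.

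**Figure D3:**
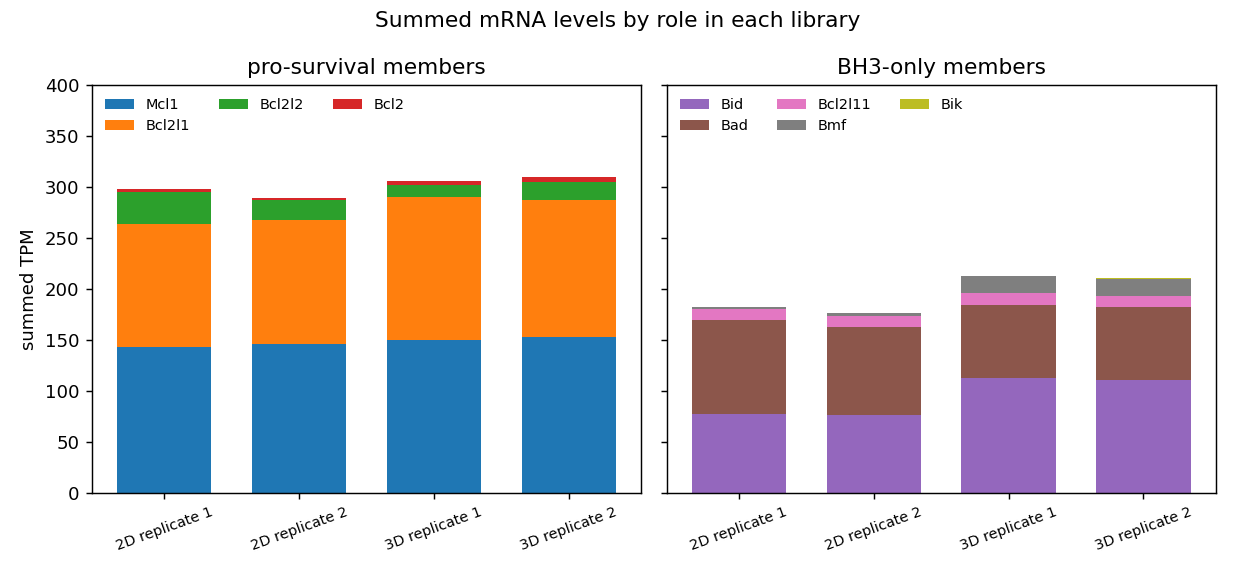
Summed TPM of the pro-survival members (left) and the BH3-only members (right) in each library, stacked by gene from 0. Mcl1 and Bcl2l1 fill most of the left bars, and the right bars reach 182.3 and 176.3 TPM in 2D and 213.0 and 210.4 TPM in 3D, with a visible layer of Bmf in 3D.

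Family genes outside the 10 members included the most abundant ones. Of 15 such genes 13 were in the table and 10 were tested, of which 3 were higher and 5 lower in 3D (median log2 fold change -0.09), while 50.5% of all genes tested were called. Pmaip1, a p53 target whose product NOXA binds MCL1, was the highest, at 934.7 and 909.7 TPM in 2D and 702.0 and 716.8 TPM in 3D, and fell by 0.38 on the log2 scale (adjusted p 0.00160 by limma). Bax, the effector that shares its role with Bak1, stood at 648.8 and 613.0 TPM in 2D and at 802.2 and 833.7 TPM in 3D, a log2 fold change of 0.37 (adjusted p 0.00329 by limma). The ratio of Bax to Bak1 was 10.8 and 9.80 in 2D and 14.7 and 12.9 in 3D. Bbc3, another p53 target, stood at 274.5 and 270.8 TPM in 2D and at 431.9 and 437.3 TPM in 3D, a log2 fold change of 0.67 (adjusted p 0.000461 by limma). PUMA, its product, binds all pro-survival proteins. Bnip3, known from hypoxia and mitophagy, rose by 0.87 (adjusted p 0.00187 by limma), and Bcl2l15 fell from 7.84 ± 1.93 to 1.51 ± 0.0329 TPM (SD, n = 2 each, log2 fold change -1.80, adjusted p 0.00197 by limma). Bok and Bcl2l14, both under 3 TPM, changed by -0.49 and -0.61 on the log2 scale (adjusted p 0.0445 and 0.0328 by limma). Of the 12 alternatives run on each, Bok lost its call in 9 and Bcl2l14 in 6. The count of 8 called genes became 5 without 2D replicate 2 and also without 3D replicate 1.

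The machinery that acts after mitochondria open was covered by 14 genes. Of these apoptosome, caspase and IAP genes 13 were tested, with 2 higher and 6 lower (median log2 fold change -0.18), beside 23.4% higher and 27.1% lower over all genes tested. Cycs, which encodes cytochrome c, fell from 168.4 ± 4.36 to 122.0 ± 0.0883 TPM (SD, n = 2 each, log2 fold change -0.46, adjusted p 0.00152 by limma). Diablo, whose product SMAC relieves caspases of their inhibitors, fell by 0.86 (adjusted p 0.000683 by limma). Of the IAP genes, Birc2 fell by 0.45 (adjusted p 0.00616 by limma). Birc5, a gene of dividing cells whose product survivin also acts in mitosis, fell from 416.4 ± 17.0 to 167.2 ± 3.35 TPM (SD, n = 2 each, log2 fold change -1.31, adjusted p 0.000245 by limma). The other IAP genes, Birc3, Birc6 and Xiap, were not called, with log2 fold changes of 0.18, -0.14 and -0.23. Xiap stood at 43.4 and 13.7 TPM in the 3D libraries. Htra2, a mitochondrial protease, fell by 0.54 (adjusted p 0.0218 by limma), a call lost without either 3D library (highest adjusted p 0.102). Casp6 rose by 0.46 (adjusted p 0.00607 by limma).

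The death receptor route feeds into Bid. Of 11 genes 9 were tested, with 3 higher and 2 lower (median log2 fold change 0.08), a share near the 50.5% called over all genes tested. Tnfrsf1a, the TNF receptor, rose from 122.7 ± 5.70 to 208.7 ± 7.25 TPM (SD, n = 2 each, log2 fold change 0.76, adjusted p 0.000840 by limma), Tnfrsf21 rose by 0.85 (adjusted p 0.000825 by limma) and the adaptor gene Tradd by 0.30 (adjusted p 0.00955 by limma, lost without either 3D library with a highest value of 0.0622). The adaptor gene Fadd fell by 0.48 (adjusted p 0.00506 by limma), and Cflar, which encodes the caspase 8 inhibitor FLIP, fell by 0.55 (adjusted p 0.00229 by limma). Fas was at 161.6 and 158.9 TPM in 2D and at 153.5 and 161.8 TPM in 3D, with overlap between the cultures (log2 fold change -0.02, adjusted p 0.676 by limma). Tnfrsf10b, the receptor of TRAIL, also overlapped, at 99.4 and 118.9 against 123.4 and 111.4 TPM (log2 fold change 0.11, adjusted p 0.431 by limma). The ligand genes Fasl and Tnfsf10 were under 0.1 TPM in each library.

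Genes for protein partners of the members were tested last. Of 15 genes 2 were higher and 5 lower (median log2 fold change 0.03), again near the share of 50.5% over all genes tested. Dynll1 and Dynll2 encode dynein light chains that hold BIM and BMF. Dynll1 stood at 167.6 and 169.9 TPM in 2D and at 126.9 and 122.8 TPM in 3D. It fell by 0.43 (adjusted p 0.00178 by limma), opposite in direction to Bmf. Dynll2 stood at 72.0 and 60.2 TPM in 2D and at 77.7 and 76.8 TPM in 3D. Its log2 fold change of 0.23 was not called (adjusted p 0.105 by limma). Among the 14-3-3 genes, whose products hold BAD, Ywhah fell by 0.65 from 459.0 ± 10.9 to 292.3 ± 0.166 TPM (SD, n = 2 each, adjusted p 0.000543 by limma) and Ywhab by 0.27 (adjusted p 0.00446 by limma). The fold changes of Ywhae, Ywhaq, Ywhaz and Ywhag were smaller, at -0.24, -0.14, 0.18 and 0.21 (adjusted p 0.0160, 0.0292, 0.0355 and 0.0106 by limma). Each of these 4 lost its call when either 3D library was left out. Of the 13 alternatives run on each, Ywhaq lost its call in 9, Ywhaz in 6, Ywhae in 3 and Ywhag in 2.

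**Figure D4:**
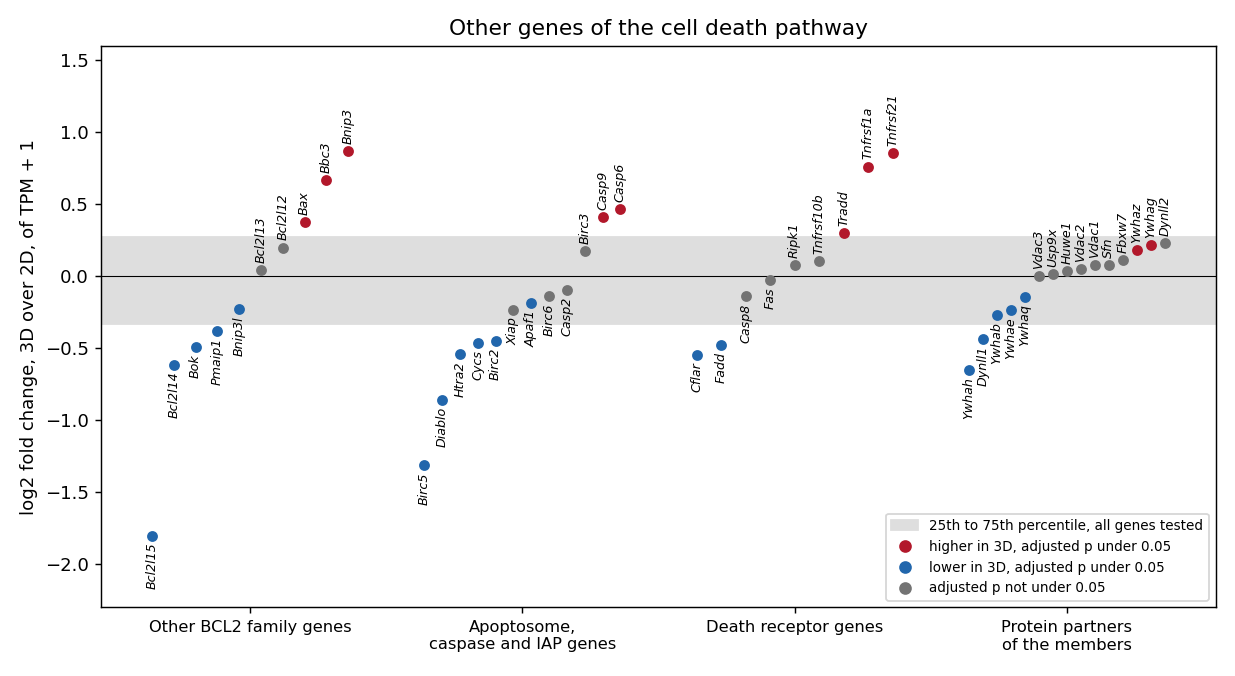
Log2 fold change of 3D over 2D on the TPM + 1 scale for tested genes of 4 lists, with 1 gene not shown, each gene a point in order within its list, red where called higher in 3D, blue where called lower and grey otherwise. The grey band holds the 25th to 75th percentile of the 14116 genes tested, and Bcl2l15 (-1.80) and Birc5 (-1.31) are the lowest points.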

How the data were processed

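RNA-seq libraries of AML12 cells (2 from 2D, 2 from 3D) were made with a stranded mRNA kit. Trimming by the authors used cutadapt 1.8.3 with Trimmomatic 0.36. Alignment to GRCm38 used HISAT2 2.0.5, set for stranded reads, and StringTie 1.3.4 gave levels of Ensembl genes. The TPM per library was deposited by the authors, unpooled. The fold change and p-value columns of the authors' DESeq2 comparison were not used. TPM keeps no depth, so no counting interval was computed.

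Genes whose TPM averaged 1 or more were fitted by limma 3.58.1 (R 4.3.3) on the log2(TPM + 1) scale (eBayes with trend and robust variance, culture as the only factor, two-sided, Benjamini-Hochberg over all 14116 genes). An exact test of 2 against 2 was not used, since it cannot pass 0.05. The script was tested on simulated data. Nothing in the labels says that the replicates came from separate cultures, so p-values measure only the spread between these libraries, which may be technical. Fits that leave out a library assume that the lone library of a culture varies like the others.

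The members and lists were chosen with earlier results of these data known. All members were named, and of each list the 3 highest in mean TPM and up to 4 called genes with the largest changes, except 1 gene that is not reported here. The summed genes and the sum without Bcl2l2 in the closing section, the promoter motifs and other genes named were chosen after values were seen. Positions matched GENCODE M21 for 9 of the 10 members, all but Bad. Sequences came from GENCODE M21 and RefSeq (Python 3.11.15, pandas 2.3.3), and figures were drawn with matplotlib 3.10.9.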

Additional observations from a re-analysis of the deposited data

How the results depend on the processing

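Of the 10 members, Bmf, Bid and Bad kept their call and direction under all 13 alternatives (highest adjusted p-values 0.00630, 0.0127 and 0.0430), and Bcl2l1 lost its call under 7. Over all alternatives 106 member values kept direction and side of the threshold, 7 lost their call and 4 changed sign. For the genes picked from the lists by the naming rule, these counts were 317, 40 and 4. They include the 1 gene not reported here and leave out Dynll2 and other genes named outside that rule. The count of members called was 3 or 4 throughout. Values that changed sign belonged to genes that were not called. Bcl2l11 was at -0.0082 under quantile normalization and ranged from -0.0621 to 0.0759 with 1 library left out, and Bak1 then ranged from -0.16 to 0.0767. Fas was at 0.0138 under quantile normalization, at 0.0020 when libraries were rescaled leaving out the mitochondrial and the 20 most abundant genes, and between -0.0619 and 0.0132 with 1 library left out, and Tnfrsf10b was at -0.0204 without 2D replicate 1. With no filter on low values 5 of 13 other family genes were called, against 8 of 10. Of the apoptosome, caspase and IAP genes 5 of 14 were then called, against 8 of 13, and of all genes 5979 of 31815. With a mean TPM of at least 5 only 7 of the other family genes were tested, and 5 of them were called. Of all genes 6002 of 10915 were then called. With the replicate block 5 of 10 other family genes were called. With a constant variance prior 4 partner genes were called, against 7. With 1 library left out the counts were 5 to 6 for the other family, 3 to 6 for partners and 4720 to 5954 for all genes, against 7122, the lowest without 3D replicate 1. The log2 ratio of summed TPM moved with rescaling from 0.0660 to 0.0925 for pro-survival and from 0.24 to 0.27 for BH3-only members, and to 0.12 for pro-survival members without Bcl2l2. That of Bak1, -0.0391, ranged from -0.17 to 0.0776 with 1 library left out. The cause was not tested. Differences between replicates 1 and 2 were nearly uncorrelated between the cultures (correlation -0.0549 across genes). This cannot show whether libraries of the same number were prepared together. With the replicate block 6248 genes were called. The groups hold 2 libraries each, so small changes such as that of Bcl2l1 are at the limit of what they can show.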
